A study of Mus musculus with 12 samples.

Results

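The comparison set mouse tumour cells carrying a dominant negative TCF4 construct together with an EZH2 construct (the group labelled DNTCF4_EZH2 here, 3 libraries) against the same cells carrying a control lentivirus (Vector, 3 libraries). Its members are the genes with at least 10 counts in at least 3 of these 6 libraries, which were 14711 of the 55492 features in the deposited count table. DNTCF4_EZH2 and Vector differ by both constructs, so the comparison describes the state left after EZH2 was added, and the shares of the 2 constructs in it cannot be told apart from these 6 libraries alone. The series holds 12 RNA-seq libraries in 4 groups of 3. Libraries titled DNTCF4-Vector (the group labelled DNTCF4 here), whose titles name no EZH2, are set beside these values where they help to place a gene. Those side-by-side values share the Vector or the DNTCF4_EZH2 libraries with the main comparison and are not independent of it.

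All libraries came from CCN6KOT, which the labels describe as a breast cancer cell line from a breast tumour with a spindle metaplastic condition. The cells were grown in DMEM/F12 medium with 10% fetal bovine serum, and every group, Vector included, had received lentivirus and puromycin. The DNTCF4_EZH2 libraries are labelled as treated with lentivirus DNTCF4-EZH2. The growth protocol names the DNTCF4 virus and the control virus. The sources used here do not give the species of the construct genes, the promoters that drive them or the order in which they were introduced. The control titles carry the tag PPGS, which the labels do not expand. Nothing in the labels ties the 3 libraries of a group to separate cultures, transductions or clones. The p-values therefore reflect the spread among the libraries alone, and that spread may be technical.

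TCF4, encoded by Tcf7l2, is a DNA-binding partner of beta-catenin. In canonical Wnt signalling a Wnt ligand binds Frizzled and LRP receptors, the destruction complex stops marking beta-catenin for degradation, and beta-catenin enters the nucleus and switches on genes with TCF sites. A dominant negative TCF4 typically lacks the part that binds beta-catenin and occupies those sites without activating them. EZH2 is the catalytic subunit of Polycomb repressive complex PRC2, which methylates histone H3 at lysine 27 and is associated with silent developmental genes. CCN6 is a secreted matricellular protein of the CCN family, and spindle metaplastic carcinoma is a breast tumour type whose cells have a mesenchymal shape.

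The 6 libraries held 23597545 to 33999982 counts. Levels are given as CPM, a gene's counts relative to the library total scaled with TMM factors, and changes as log2(DNTCF4_EZH2/Vector) from edgeR's quasi-likelihood test with its standard error (SE) and a Benjamini-Hochberg adjusted p over all 14711 genes, called at 0.05. A value in brackets directly after a gene name or its description is the log2 change. The biological coefficient of variation over the 4 groups was 5.14%, so small changes passed the test. Counts of 2 libraries of 1 group differed beyond sampling noise in every pair: chi-square divided by its degrees of freedom ran from 2.44 to 3.72 between Vector libraries and from 6.11 to 16.5 between DNTCF4_EZH2 libraries. Counts on olfactory and vomeronasal receptor genes, which this tissue is not known to use, summed to 95.6, 292 and 146 CPM in Vector and 59.7, 56.7 and 57.3 CPM in DNTCF4_EZH2 (exact permutation test, two-sided, p = 0.1, the smallest that 3 against 3 allows). Vector 2 stood apart in this sum. A row for the Cre transgene held 36, 32 and 15 counts in Vector and 7, 3 and 7 in DNTCF4_EZH2, and the other 4 transgene rows held none.

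The transcriptome of DNTCF4_EZH2 cells differed from Vector at 8599 of the 14711 genes (58.5%). Of all tested genes, 4170 were higher (28.3%) and 4429 were lower (30.1%), so the calls were close to evenly divided, and the median log2 change of all genes was -0.02. A change of at least 2-fold was seen for 929 higher (6.32%) and 705 lower genes (4.79%), together 1634 (11.1%). Of these, 198 higher and 214 lower genes had both group means under 1 CPM. Of the 6112 genes that did not pass, 2712 had a 95% interval that lay within 1.2-fold of no change. The gene groups described here are read against these shares. The 3 DNTCF4_EZH2 libraries lay wholly above or wholly below the 3 Vector libraries for 10122 genes (68.8%). Interferon response genes were nearly all lower, inflammatory cytokine and chemokine genes mostly rose, mitotic genes rose by a small amount, and genes of ribosome production fell by a small amount.

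**Figure D1:**
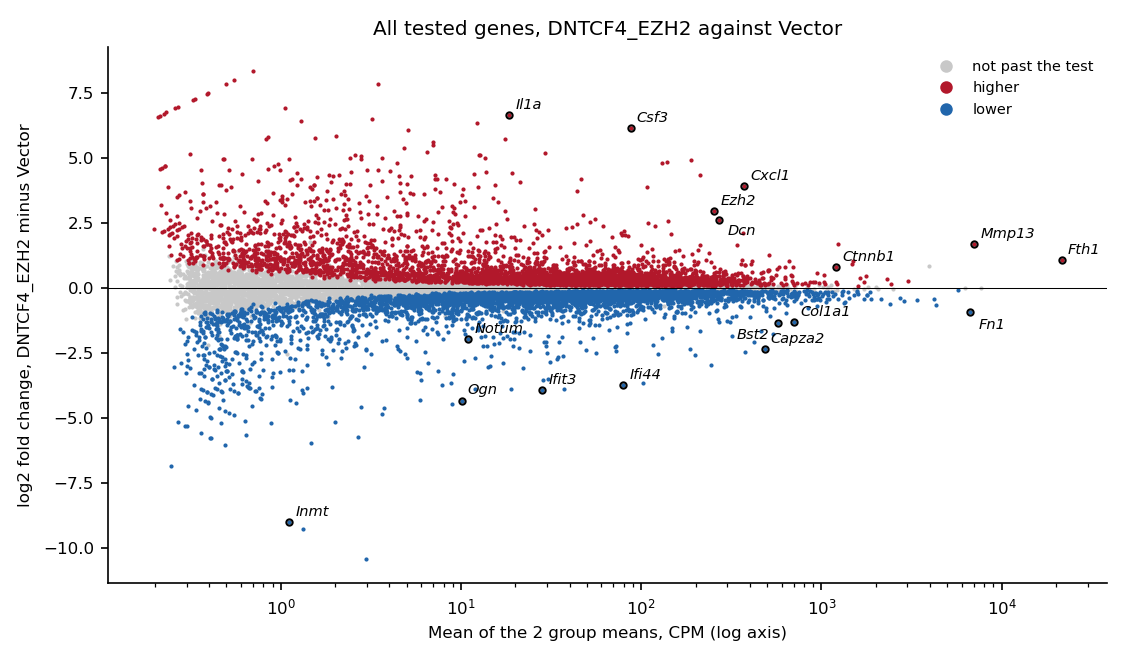
Each point is a tested gene, with the mean of the 2 group means in CPM on a log x axis and the log2 fold change of DNTCF4_EZH2 against Vector on the y axis, coloured by whether the gene was higher (4170), lower (4429) or not past the test (6112). Among the labelled genes Il1a and Csf3 stand highest, Inmt, Ogn, Ifit3 and Ifi44 lowest, and Fth1, Mmp13 and Fn1 farthest to the right; the fitted height of a gene with no count in 1 group, such as Inmt, depends on the prior count.

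Reads on both construct genes were higher. Ezh2 (chromosome 6, 47530139 to 47595341, GRCm38) stood at 57.9, 56.7 and 59.8 CPM in the 3 Vector libraries and 469, 428 and 451 in the DNTCF4_EZH2 libraries, a 7.73-fold difference (log2 change 2.95, SE 0.053, adjusted p = 7.77e-16). The DNTCF4 libraries averaged 65.4 ± 3 CPM (SD, n = 3), near the Vector level. Tcf7l2 (chromosome 19, 55741820 to 55933654) stood at 8.65, 13.6 and 10.9 CPM in Vector and 46.5, 46.3 and 43.4 in DNTCF4_EZH2 (log2 change 2.04, SE 0.11, adjusted p = 2.87e-10). For both genes every DNTCF4_EZH2 library was above every Vector library, and gene-level counts do not separate the endogenous transcript from a construct. Ctnnb1, which encodes beta-catenin, rose from 879 ± 9.34 to 1539 ± 18.2 CPM (log2 change 0.81, SE 0.036, adjusted p = 2.82e-11). Set, which encodes a histone chaperone, fell from 689 ± 18.7 to 534 ± 9.44 CPM (log2 change -0.37, SE 0.044, adjusted p = 3.81e-06). Ccn6 and Trp53 had too few counts to be tested.

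Axin2 and Notum, negative feedback genes that serve as standard readouts of canonical Wnt signalling, were lower in DNTCF4_EZH2, while their list as a whole moved in both directions. Axin2 (chromosome 11, 108920349 to 108950783), a scaffold of the destruction complex and a direct target of beta-catenin with TCF, stood at 2.68, 2.78 and 3.54 CPM in Vector and 0.702, 0.848 and 0.909 in DNTCF4_EZH2 (log2 change -1.87, SE 0.19, adjusted p = 4.75e-07). Notum, a secreted enzyme that inactivates Wnt ligands, stood at 16.9, 18 and 17.7 CPM in Vector and 4.45, 4.24 and 4.78 in DNTCF4_EZH2 (log2 change -1.96, SE 0.11, adjusted p = 4.87e-10). The groups did not overlap for either gene, although both were low in all libraries. The DNTCF4 libraries averaged 0.826 ± 0.11 CPM for Axin2 and 2.51 ± 0.43 CPM for Notum, and DNTCF4_EZH2 against DNTCF4 gave log2 changes of -0.01 (adjusted p = 0.974) and 0.83 (adjusted p = 0.000399).

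Of 26 listed Wnt target and feedback genes, 15 were tested, of which 9 were lower (60% against 30.1% of all genes), 4 higher and 2 did not pass, with a median log2 change of -0.28. Lgr6, a receptor for R-spondins, fell by 1.13 on the log2 scale, Ccn4, a matricellular Wnt target, by 0.94, and Ccnd1, the G1 cyclin D1, by 0.84. Myc fell from 245 ± 3.51 to 203 ± 2.76 CPM (log2 change -0.27, SE 0.065, adjusted p = 0.00219). The genes that rose encode 2 membrane proteins that dampen signalling, the Wnt inhibitor Apcdd1 (0.227, 0.186 and 0.169 against 3.54, 4.14 and 4.38 CPM, log2 change 4.34) and the TGF-beta pseudoreceptor Bambi (0.756, 0.705 and 0.801 against 4.13, 3.46 and 4.28 CPM, log2 change 2.39), the receptor tyrosine kinase Ephb2 (0.57) and the transcription factor Tcf7 (0.22, adjusted p = 0.0437). The call of Tcf7 was lost when Vector 2, Vector 3 or any of the 3 DNTCF4_EZH2 libraries was left out (adjusted p = 0.0562 to 0.140) and under the replicate block (adjusted p = 0.0581). The list's members did not move in a single direction.

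**Figure D2:**
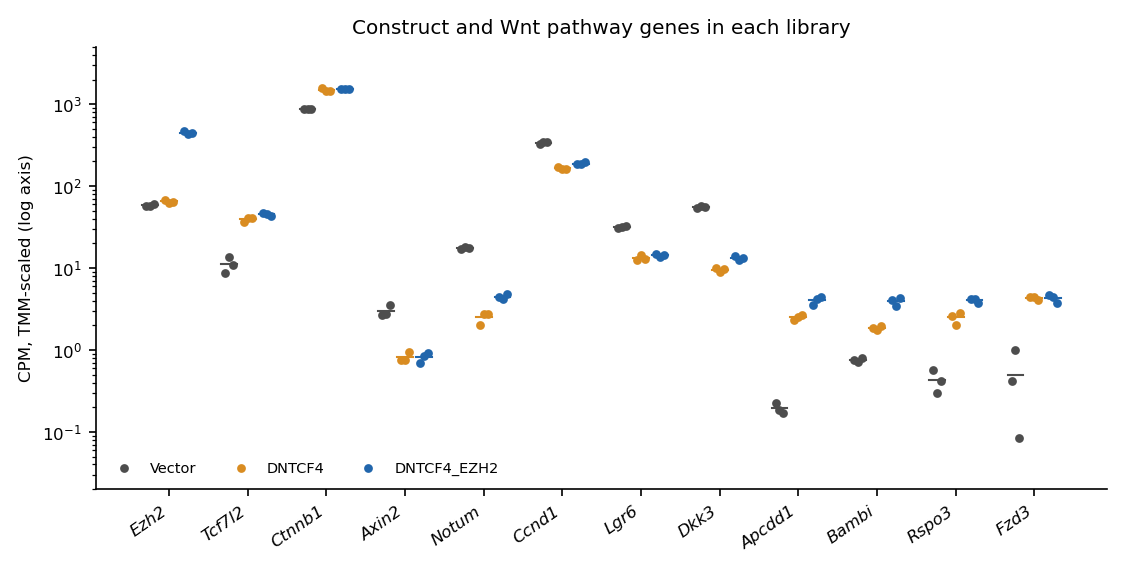
Points are single libraries and short lines group means, in TMM-scaled CPM on a log y axis, for the construct genes and Wnt pathway genes named on the x axis, in Vector, DNTCF4 and DNTCF4_EZH2. Ezh2 is high in DNTCF4_EZH2 alone of the 3 groups, Tcf7l2 is above Vector in both groups with the DNTCF4 construct, and Axin2, Notum, Ccnd1, Lgr6 and Dkk3 lie below Vector.

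Among 28 tested ligands, receptors and antagonists of the Wnt pathway (of 40 listed), 12 were lower (42.9% against 30.1% of all genes), 6 higher (21.4% against 28.3%) and 10 did not pass, with a median log2 change of -0.15. Among the ligands, Wnt10a (-1.77) and Wnt7b (-0.87) fell and Wnt11 rose (1.34). Among the receptors, Fzd1 fell (-1.05), Fzd3 rose from 0.416, 1 and 0.0843 to 4.74, 4.37 and 3.74 CPM (log2 change 3.04, adjusted p = 6.22e-07) and the co-receptor Lrp5 rose (0.40). Without Vector 2, whose Fzd3 level was the highest of the Vector libraries, the change of Fzd3 was 4.03. Dkk3, a secreted protein of the Dickkopf family, fell from 56.2 ± 1.58 to 13.3 ± 0.708 CPM (log2 change -2.07, adjusted p = 1.41e-13). Rspo3, an R-spondin that strengthens Wnt signalling at the membrane, rose from 0.567, 0.297 and 0.421 to 4.18, 4.24 and 3.7 CPM (log2 change 3.23, adjusted p = 2.64e-09).

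All 20 listed genes of the destruction complex, its TCF factors and their partners were tested, and 12 were higher (60% against 28.3% of all genes), 3 lower and 5 did not pass, with a median of 0.25. Tle4, a Groucho-type corepressor that TCF factors recruit, rose by 2.18 on the log2 scale and Pygo1, a beta-catenin coactivator, by 1.99. Gsk3b, the kinase that marks beta-catenin, rose by 0.47. Without Vector 2 the change of Tle4 was 3.45 and that of Pygo1 2.60, and without Vector 1, Vector 3 or DNTCF4_EZH2 2 only 1 member of the list was lower.

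Other Polycomb genes changed less than Ezh2. Of 31 listed members besides it, all tested, 14 were higher (45.2% against 28.3% of all genes) and 6 lower (19.4% against 30.1%). The other 11 did not pass, and the median log2 change of the 31 was 0.11. The other core PRC2 subunits were Suz12, which rose from 69.8 ± 0.114 to 87.3 ± 0.946 CPM (log2 change 0.32, SE 0.089, adjusted p = 0.00548), and Eed, which stood at 45.5 ± 0.137 and 44.6 ± 2.37 CPM and did not pass (log2 change -0.03, SE 0.043, adjusted p = 0.62). Ezh1, the alternative catalytic subunit, rose by 0.41 on the log2 scale. The largest rise among accessory subunits was Epop, which links PRC2 to elongin, from 1.97, 2.04 and 2.28 CPM in Vector to 4.53, 5.48 and 5.45 in DNTCF4_EZH2 (log2 change 1.30). Mtf2, which guides PRC2 to unmethylated CpG islands, rose by 0.54. In PRC1, the ubiquitin ligase complex of the same system, Rybp fell (-0.30).

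The enzymes of H3K27 demethylation, DNA methylation and DNA demethylation were tested through 8 of 10 listed genes, with a median of 0.30. Among the tested genes 5 were higher (62.5% against 28.3% of all genes), 1 lower (12.5% against 30.1%) and 2 did not pass. The H3K27 demethylases Kdm6a (0.28) and Kdm6b (0.45) rose, as did the DNA methyltransferase Dnmt3a (0.25), the maintenance methylation factor Uhrf1 (0.31) and the DNA demethylase Tet3 (0.32), while Tet2 fell (-0.35).

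Of 86 listed developmental regulators often found under Polycomb, 55 were below the count filter and are not described by the shares that follow. Of the 31 tested, 17 were lower (54.8% against 30.1% of all genes), 6 higher (19.4% against 28.3%) and 8 did not pass, with a median log2 change of -0.32. The same 31 genes had a median of -0.27 in DNTCF4 against Vector and 0.13 in DNTCF4_EZH2 against DNTCF4. Irx3, an Iroquois homeobox factor, fell from 75.2, 73.9 and 74 to 16.6, 17.7 and 18.4 CPM (log2 change -2.08, adjusted p = 1.72e-12), and the kidney and mesenchyme factors Wt1 (-1.01) and Osr1 (-1.26) and the forkhead factor Foxc1 (-1.03) fell as well. Sox11, a SOX factor of neural and mesenchymal progenitors, went the other way, from 0.567, 1.04 and 0.506 to 24.4, 23.4 and 26.1 CPM (log2 change 5.10, adjusted p = 4.09e-14), and the homeobox factor Msx1 rose by 2.18. Lhx2, a LIM homeobox factor, fell from 1.17, 0.928 and 0.632 to 0.0878, 0.163 and 0.0337 CPM (log2 change -3.21, adjusted p = 2.13e-05).

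Interferon response genes were lower in DNTCF4_EZH2 with few exceptions. Of 58 listed genes, 55 were tested, and 53 of them were lower (96.4% against 30.1% of all genes) while none was higher and 2, Isg20 and Slfn5, did not pass. For all 55 the 3 DNTCF4_EZH2 libraries lay below the 3 Vector libraries, where 68.8% of all genes had groups that did not overlap in either direction. The median log2 change was -1.84, against -0.02 over all genes. The same members had a median of -0.34 in DNTCF4 against Vector and of -1.34 in DNTCF4_EZH2 against DNTCF4.

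Interferon signalling runs from cell surface receptors through kinases to transcription factors of the STAT and IRF families. Complexes of these bind the interferon-stimulated response element (ISRE) in target promoters. Sequences are shown for 3 members whose promoters hold the core of this element, to let the arrangement be read beside the values. They are the 250 bases before the start site in RefSeq on GRCm38.p6, written 5′ to 3′ on the gene's strand, with matches to GAAANNGAAA on either strand in capitals.
Ifit3 (chr19:34583279-34583528, plus strand): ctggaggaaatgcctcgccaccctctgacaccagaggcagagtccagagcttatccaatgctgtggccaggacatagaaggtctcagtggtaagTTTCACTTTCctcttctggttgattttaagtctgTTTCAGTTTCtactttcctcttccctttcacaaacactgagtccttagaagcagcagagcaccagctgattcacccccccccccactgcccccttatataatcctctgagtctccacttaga
Isg15 (chr4:156200819-156201068, minus strand): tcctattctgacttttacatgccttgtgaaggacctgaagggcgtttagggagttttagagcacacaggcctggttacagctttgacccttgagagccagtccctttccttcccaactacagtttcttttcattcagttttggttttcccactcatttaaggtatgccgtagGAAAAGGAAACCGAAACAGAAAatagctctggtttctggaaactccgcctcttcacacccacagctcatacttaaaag
Gbp3 (chr3:142559794-142560043, plus strand): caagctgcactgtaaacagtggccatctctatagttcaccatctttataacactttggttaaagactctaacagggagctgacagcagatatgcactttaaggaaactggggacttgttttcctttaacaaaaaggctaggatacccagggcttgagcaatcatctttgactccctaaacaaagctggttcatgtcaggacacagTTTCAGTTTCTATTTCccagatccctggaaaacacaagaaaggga

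The Ifit3 window held 2 separate matches, which began 156 and 122 bases before the start, both on the opposite strand. The Isg15 window held 3 matches, each overlapping the next, of which the first began 78 and the last 66 bases before the start. The Gbp3 window held 2 overlapping matches, which began 45 and 39 bases before the start. A promoter entry was found for 42 of the 55 tested members, and 21 of these 42 (50%) held at least 1 match, counting a gene when any of its windows did. Among all tested genes with an entry the share was 335 of 10606 (3.16%), and among all entries 936 of 27025 (3.46%). For the cytokine and NF-kappaB list it was 1 of 35 (2.86%), and for the Wnt target list 0 of 8. A match is a description of the letters and not of a bound site. The list was chosen as interferon response genes, so its share of matches says nothing about the changes in these libraries. Members without a match, such as Ifi44 and Irf7, fell too, and Slfn5, which holds 1, did not pass. A link between matches and the falls was not tested.

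Effector genes of the response include those with the largest falls of the list. Ifit3, which binds foreign RNA with its IFIT partners, stood at 52.3, 49.9 and 56.3 CPM in Vector and 3.28, 3.65 and 3.43 in DNTCF4_EZH2, 15.3-fold lower (log2 change -3.93, SE 0.082, adjusted p = 4.13e-15). Ifi44, an interferon-induced GTPase-like protein, stood at 149, 147 and 148 CPM in Vector and 11, 12.3 and 10.2 in DNTCF4_EZH2 (log2 change -3.73, SE 0.063, adjusted p = 3.68e-16). Oas2, which makes the messenger that activates RNase L, stood at 54.8, 57.2 and 56.2 CPM in Vector and 4.33, 4.47 and 5.96 in DNTCF4_EZH2 (log2 change -3.51, SE 0.098, adjusted p = 1.14e-13). Ifit3 has a near-identical neighbour, so how its reads were shared out is uncertain. All 3 genes had Vector libraries close to each other and DNTCF4_EZH2 libraries at a small fraction of that level. Isg15 (chromosome 4, 156199424 to 156200818), a ubiquitin-like modifier, stood at 129, 122 and 116 CPM in Vector and 21.8, 24.9 and 22.6 in DNTCF4_EZH2 (log2 change -2.41, SE 0.056, adjusted p = 1.25e-14). Gbp3, a guanylate-binding protein of cell-autonomous defence, stood at 120.4, 114 and 121 CPM in Vector and 25.7, 24.7 and 26 in DNTCF4_EZH2 (log2 change -2.22, SE 0.053, adjusted p = 1.66e-14). Bst2, the tetherin that holds budding virus at the membrane, remained abundant at 326 ± 4.22 CPM in DNTCF4_EZH2, below 822 ± 29.7 in Vector (log2 change -1.33, SE 0.035, adjusted p = 5.02e-14).

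The regulators of the pathway fell by different amounts. Irf7 (chromosome 7, 141262706 to 141266481), the factor that amplifies type I interferon transcription, stood at 344, 343 and 335 CPM in Vector and 54, 57.8 and 58.1 in DNTCF4_EZH2 (log2 change -2.59, SE 0.07, adjusted p = 7.45e-14), with a DNTCF4 mean of 179.7 ± 22.3 CPM between them. No library of either group overlapped the other. Irf9 fell by 1.33 on the log2 scale. Stat2 fell less, by 0.30 (adjusted p = 3.91e-05). For Isg20 and Slfn5 the log2 changes were -0.16 (adjusted p = 0.0823) and -0.73 (adjusted p = 0.0809), and Isg20 passed without DNTCF4 1 in the fit (adjusted p = 0.0352) or with the 6 libraries alone (adjusted p = 0.0255).

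**Figure D3:**
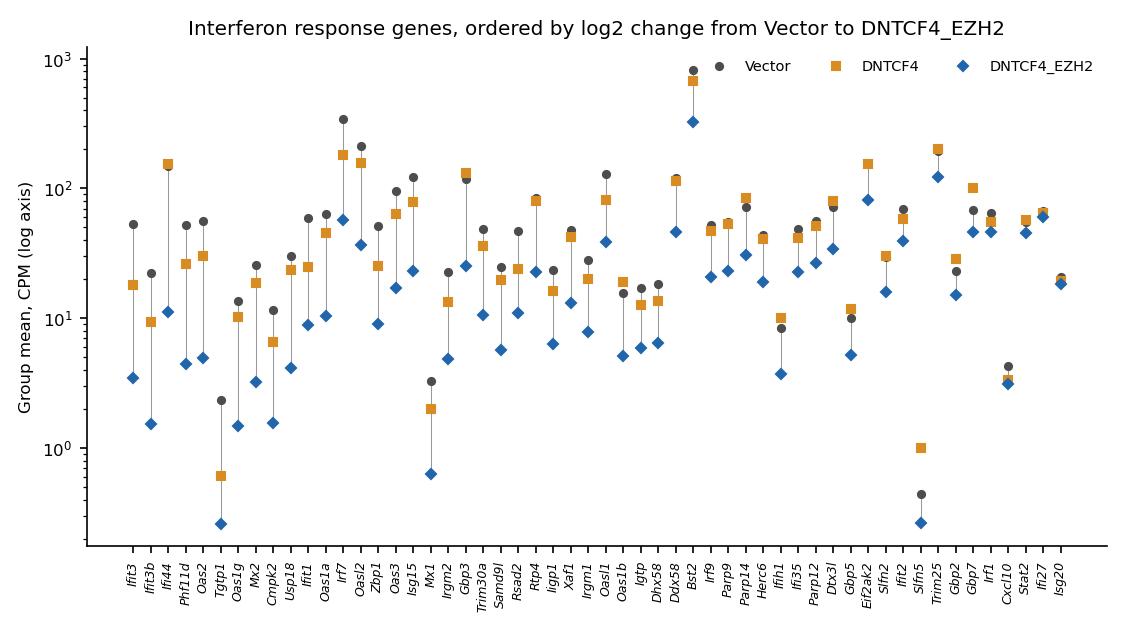
Of the 55 tested interferon response genes, 54 are on the x axis, ordered by log2 change from Vector to DNTCF4_EZH2, and group means in CPM are on a log y axis for Vector, DNTCF4 and DNTCF4_EZH2, with a grey line from Vector to DNTCF4_EZH2. One member is not drawn. Every grey line falls, from 3.93 on the log2 scale for Ifit3, the largest fall of the 55, at the left to 0.30 or less for the last 3 genes at the right.

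Cytokine, chemokine and NF-kappaB response genes mostly moved up. Of 52 listed genes, 49 were tested and 35 were higher (71.4% against 28.3% of all genes), 9 lower and 5 did not pass, with a median log2 change of 0.90. Csf3 (chromosome 11, 98701263 to 98703629), the growth factor G-CSF that drives neutrophil production, stood at 2.31, 2.56 and 2.4 CPM in Vector and 171, 174 and 171 in DNTCF4_EZH2 (log2 change 6.15, SE 0.062, adjusted p = 2.04e-18). Il1a (chromosome 2, 129299610 to 129309972), an epithelial and stromal alarm cytokine, stood at 0.454, 0.445 and 0.169 CPM in Vector and 35.1, 39.4 and 35.8 in DNTCF4_EZH2 (log2 change 6.64, SE 0.14, adjusted p = 5.63e-15). Cxcl1 (chromosome 5, 90891241 to 90893115), a chemokine that attracts neutrophils, stood at 47.9, 43.5 and 47.8 CPM in Vector and 701, 719 and 678 in DNTCF4_EZH2 (log2 change 3.91, SE 0.091, adjusted p = 1.28e-14). For each of these 3 genes, every DNTCF4_EZH2 library was above every Vector library.

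The rise covered several functions. Among secreted chemokines Cxcl2 rose by 4.81 on the log2 scale, and Ccl3, a monocyte chemokine, went from 2 counts over the Vector libraries to 655 over the DNTCF4_EZH2 libraries, a ratio of 267 with a 95% counting interval of 73.7 to 2211. Among effectors, Nos2, the inducible nitric oxide synthase (5.18), the iron-binding lipocalin Lcn2 (4.85), the acute phase protein Saa3 (4.35) and complement C3 (1.65) rose. Il6 rose from 2.76, 2.9 and 2.87 to 12.8, 12.1 and 11.2 CPM (log2 change 2.08, adjusted p = 3.26e-10) and Tnf from 1.02, 1.11 and 1.01 to 4.48, 3.98 and 4.11 CPM (log2 change 1.99, adjusted p = 7.28e-07). Among the genes that fell were Il11 (-1.74), the macrophage growth factor Csf1 (-1.28), its relative Il34 (-0.85) and the interleukin 1 receptor antagonist Il1rn (-0.68). In DNTCF4 against Vector the same list had a median of 1.08, and in DNTCF4_EZH2 against DNTCF4 of -0.16.

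Markers of other cells were read beside these genes. The summed level of 12 macrophage and leukocyte markers was 62.6 to 67.7 CPM in Vector and 77.8 to 83.9 in DNTCF4_EZH2. Of 4 that were tested, Cd68 (0.34) and Aif1 (1.41) rose, and Csf1r (0.32) and Cd14 (0.09) did not pass. The pan-leukocyte marker Ptprc was not tested. It held 31 counts over Vector and 2 over DNTCF4_EZH2, under 0.6 CPM in all 6 libraries. Tyrobp and Cd52 had no count. The call of Cd68 was lost without both Vector 2 and DNTCF4_EZH2 1 (adjusted p = 0.0512). The 6 neutrophil markers summed to 10.9 to 12.4 CPM in Vector and 40.3 to 44.7 in DNTCF4_EZH2. S100a8 was the only tested member of that list (1.92), Retnlg had no count and S100a9 stayed under 0.14 CPM. The 7 T and B cell markers summed to at most 1.23 CPM, none was tested, and Cd3d and Cd8a had no count. The 7 endothelial markers summed to 1.90 to 2.75 CPM in Vector and 2.05 to 2.76 in DNTCF4_EZH2, with no count for Cldn5. Of 2 tested, Cdh5 rose (0.64, adjusted p = 0.033). Pecam1 was lower in every DNTCF4_EZH2 library than in any Vector library but did not pass (-0.71, adjusted p = 0.0507). The call of Cdh5 was lost without Vector 1, Vector 3, DNTCF4_EZH2 2 or DNTCF4_EZH2 3 (adjusted p = 0.0842 to 0.109). The 5 adipocyte markers summed to 7.76 to 8.99 CPM in Vector and 11.8 to 12.6 in DNTCF4_EZH2, nearly all of it Fabp4 (0.60, adjusted p = 2.48e-05), the only tested member. Pericyte markers summed to 8.06 to 8.62 CPM in Vector and 6.36 to 8.96 in DNTCF4_EZH2, and erythroid markers to at most 0.131 CPM in any of the 6 libraries. The part of such cells in the cytokine values was not tested. In bulk libraries fewer cells of a type and less RNA per cell cannot be told apart.

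Genes of antigen presentation did not follow the interferon list. Of 24 listed, 19 were tested, with a median of 0.29. Among the tested genes 10 were higher (52.6% against 28.3% of all genes), 6 lower (31.6% against 30.1%) and 3 did not pass. The class I heavy chain H2-D1 rose from 2713 ± 35.5 to 3312 ± 40.8 CPM (log2 change 0.29, SE 0.032, adjusted p = 1.69e-06) and H2-K1 by 0.47 on the log2 scale. Nlrc5, the transactivator of class I genes, rose by 1.46. H2-Q7 rose by 2.51. Class I genes share near-identical stretches, so the split of reads among them, above all for H2-Q7, is uncertain. The peptide trimming enzyme Erap1 (-0.82) and the immunoproteasome subunit Psmb10 (-0.62) fell.

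**Figure D4:**
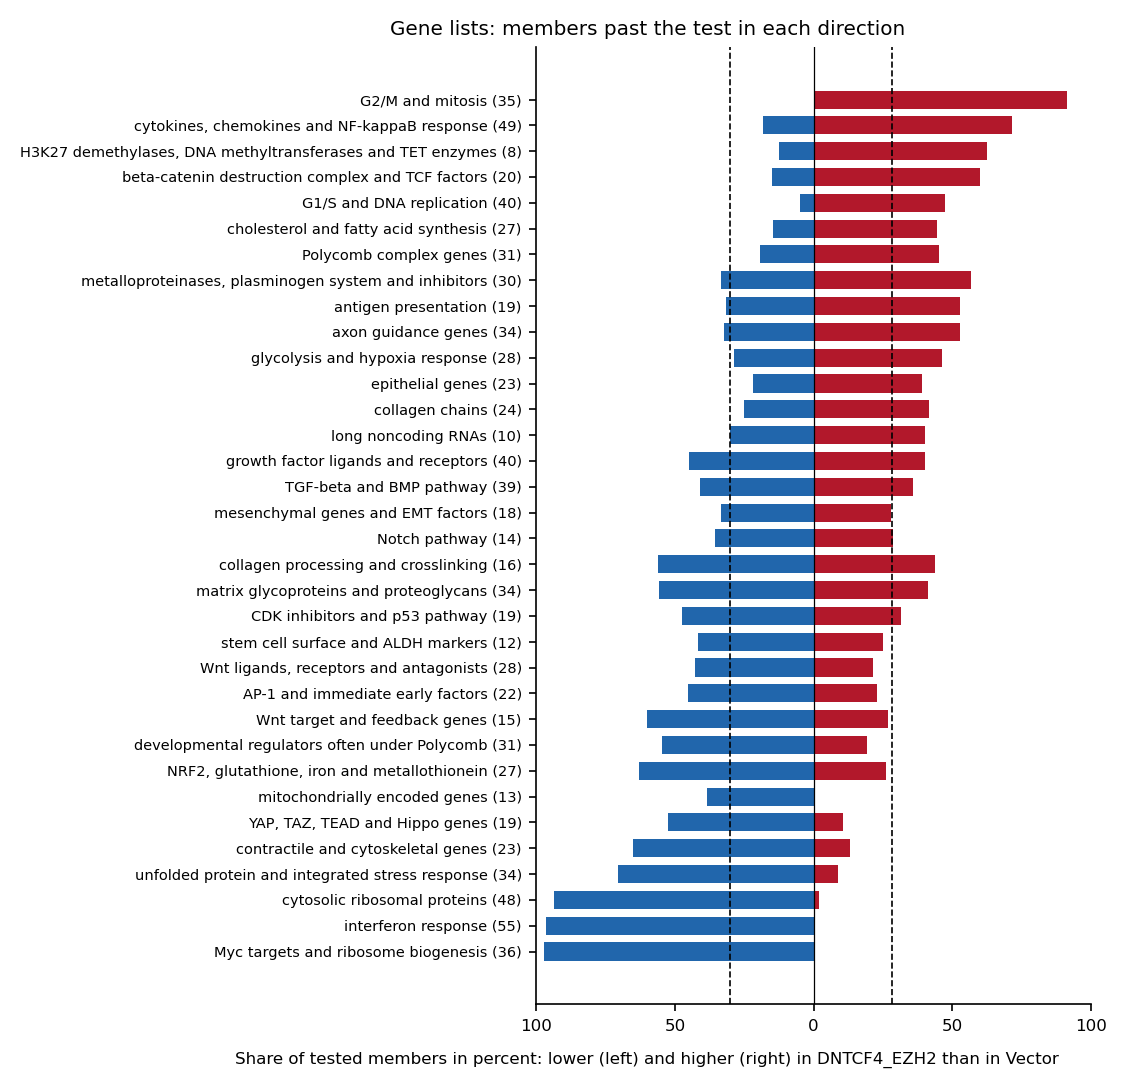
Bars give, for each gene list, the percentage of tested members (number in brackets) that were lower (left, blue) or higher (right, red) in DNTCF4_EZH2 than in Vector. Dashed lines mark the shares over all tested genes, 30.1% lower and 28.3% higher, and the interferon response, ribosome biogenesis and ribosomal protein lists at one end and the G2/M list at the other lie far outside them.

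Mitotic genes mostly rose, by small amounts that differed among members. All 35 listed G2/M genes were tested, and 32 were higher (91.4% against 28.3% of all genes), none was lower, and Foxm1, Ect2 and Bub3 did not pass, with a median log2 change of 0.44. Mki67, the proliferation antigen Ki-67, stood at 117, 117 and 122 CPM in Vector and 194, 189.8 and 198 in DNTCF4_EZH2 (log2 change 0.71, SE 0.038, adjusted p = 3.19e-10). The DNTCF4 mean was 121 ± 4.13 CPM, which overlapped the Vector range. Top2a, the topoisomerase that untangles chromosomes, rose from 211 ± 9.1 to 327 ± 5.14 CPM (log2 change 0.63, adjusted p = 4e-08), the spindle kinesin Kif11 by 0.65, the midzone protein Prc1 by 0.62, cyclin B1 (Ccnb1) by 0.40 and the mitotic kinase Plk1 by 0.37. The list's median was -0.07 in DNTCF4 against Vector and 0.48 in DNTCF4_EZH2 against DNTCF4.

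Genes of G1/S and DNA replication changed less. Of 40, 19 were higher (47.5% against 28.3% of all genes), 2 lower (5% against 30.1%) and 19 did not pass, with a median of 0.14. The polymerase alpha subunit Pola2 (0.52), the origin factors Mcm10 (0.43) and Cdc45 (0.41) rose, and the helicase subunits Mcm2 (-0.22) and Mcm6 (-0.23) fell. Of 19 CDK inhibitors and p53 pathway genes, 6 were higher (31.6% against 28.3% of all genes), 9 lower (47.4% against 30.1%) and 4 did not pass, with a median of -0.09. Cdkn1a, the inhibitor p21, rose from 33.7 ± 1.63 to 64.4 ± 3.58 CPM (log2 change 0.93, SE 0.072, adjusted p = 2.68e-08) and Cdkn2c rose by 0.91, while Cdkn2b (-0.54) and the p53 target Perp (-1.45) fell.

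Ribosome production genes fell together by small amounts. Of 36 Myc targets and ribosome biogenesis genes, 35 were lower (97.2% against 30.1% of all genes), none was higher, and Npm1 did not pass (adjusted p = 0.0547, and 0.000109 without DNTCF4 1 in the fit), with a median of -0.39. Rrp12, a processing factor of pre-ribosomes, fell from 25.7 ± 2.29 to 13.6 ± 0.654 CPM (log2 change -0.92, SE 0.077, adjusted p = 6.3e-08). Srm, the spermidine synthase, fell by 0.91 on the log2 scale, the pseudouridine synthase Dkc1 by 0.79, and the box C/D protein Nop58 by 0.74. Of 48 cytosolic ribosomal protein genes, 45 were lower (93.8%), Rpl5 was higher (0.13, adjusted p = 0.0263) and 2 did not pass, with a median of -0.26. The call of Rpl5 was lost without Vector 2 or 3 or without DNTCF4_EZH2 1 or 3 (adjusted p = 0.0505 to 0.118). These genes have many processed pseudogenes, and how reads were divided among the copies can affect single members.

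Of 34 unfolded protein and integrated stress response genes, 24 were lower (70.6% against 30.1% of all genes) and 3 higher (8.82% against 28.3%). The other 7 did not pass, and the median was -0.17. Hspa5, the main chaperone of the endoplasmic reticulum, fell from 1593 ± 47.2 to 1081 ± 7.25 CPM (log2 change -0.56, SE 0.044, adjusted p = 2.84e-08), Chac1 fell by 0.52 and the stress factor Ddit3 by 0.48. Slc7a11, the cystine transporter, rose by 0.68.

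**Figure D5:**
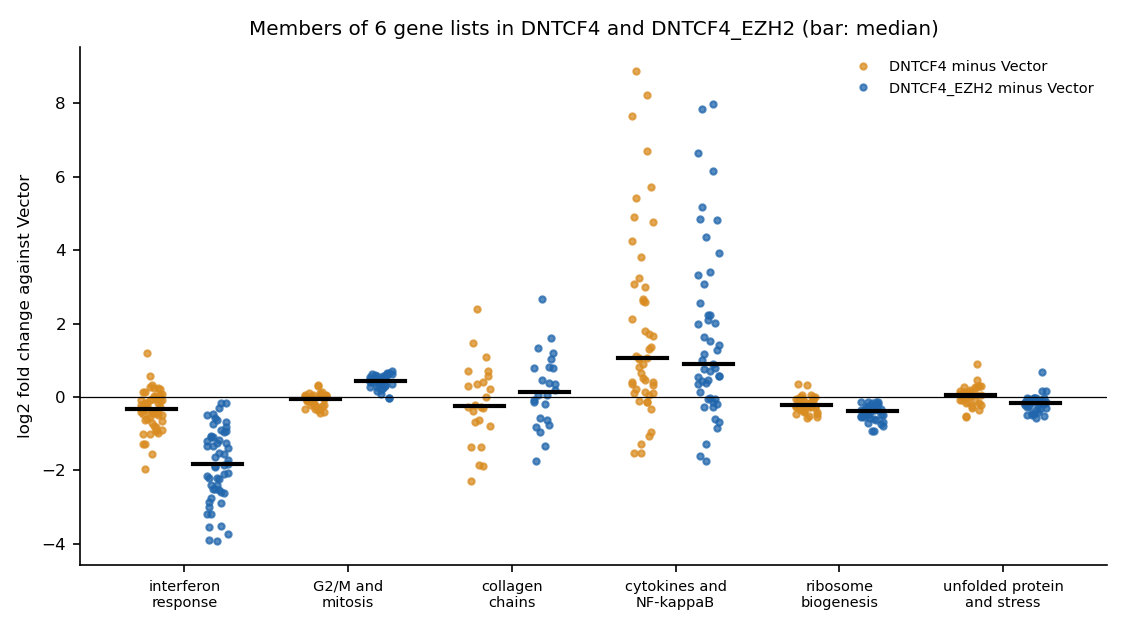
Points are the tested members of 6 gene lists (x axis) and the y axis is their log2 fold change against Vector, in DNTCF4 (orange) and in DNTCF4_EZH2 (blue), with a bar at the median. Both columns use the same 3 Vector libraries; the interferon medians are -0.34 and -1.84, the G2/M medians -0.07 and 0.44, and the collagen medians -0.24 and 0.13.

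The extracellular matrix was altered in both directions. Of 29 collagen chains, 24 were tested. Among these, 10 were higher (41.7% against 28.3% of all genes), 6 lower (25% against 30.1%) and 8 did not pass. The fibril-forming type I chains fell, Col1a1 from 920.4, 1065 and 1035 to 401, 383 and 425 CPM (log2 change -1.32, SE 0.06, adjusted p = 4e-11) and Col1a2 by 1.76 on the log2 scale. Basement membrane chains rose, Col4a1 by 0.80 and Col4a2 by 0.82. Col6a3 (1.03), Col5a3 (1.20) and Col27a1 (2.67) rose, and Col12a1 (-0.77) and Col6a2 (-0.80) fell. The median over the list was 0.13, against -0.24 in DNTCF4 against Vector.

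Among 34 tested matrix glycoproteins and proteoglycans (of 49 listed), 14 were higher (41.2% against 28.3% of all genes). A further 19 were lower (55.9% against 30.1%) and 1 did not pass. Fn1, the gene of fibronectin, lost more CPM than any other gene under the naming rule, from 8401, 9101 and 8765 in Vector to 4598, 4608 and 4675 in DNTCF4_EZH2 (log2 change -0.92, SE 0.05, adjusted p = 3.34e-10). Dcn, the small proteoglycan decorin, rose from 75.6, 78.8 and 74.7 to 468, 471 and 454 CPM (log2 change 2.60, SE 0.043, adjusted p = 2.9e-16), and its relative Ogn, osteoglycin, fell from 18.6, 20.5 and 18.5 to 1.05, 0.946 and 0.842 CPM (log2 change -4.33, SE 0.13, adjusted p = 1.69e-13). These proteoglycans of 1 family moved in opposite directions, each with groups that did not overlap. Tenascin C (Tnc, 1.44) and the laminin linker Nid1 (0.90) rose, and Ccn2 (-1.52), Ecm1 (-1.64) and Spp1, osteopontin (-0.51), fell. The median was -0.19.

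All 16 genes of collagen processing and crosslinking passed the test, with a median of -0.24. Among these, 7 were higher (43.75% against 28.3% of all genes) and 9 lower (56.25% against 30.1%). The lysyl oxidases Lox (-1.14) and Loxl4 (-1.65) and the prolyl hydroxylase subunit P4ha3 (-2.67) fell. The lysyl hydroxylase Plod2 (0.55) and the procollagen protease Bmp1 (0.47) rose.

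Matrix metalloproteinases and protease inhibitors each moved in both directions. Of 30 tested metalloproteinase, plasminogen system and inhibitor genes (of 33), 17 were higher (56.7% against 28.3% of all genes). A further 10 were lower (33.3% against 30.1%) and 3 did not pass, and the median was 0.33. Mmp13 (chromosome 9, 7272514 to 7283331), a collagenase, rose from 3397, 3292 and 3323 to 10813, 10921 and 10562 CPM (log2 change 1.69, SE 0.055, adjusted p = 7.91e-13). Mmp3, a stromelysin, rose from 561, 581 and 595 to 1906, 1879 and 1897 CPM (log2 change 1.71, SE 0.036, adjusted p = 4.13e-15). Both were abundant in Vector and rose about as much in each DNTCF4_EZH2 library. Mmp9, a gelatinase, went from 0.151, 0.223 and 0.295 to 6.93, 6.85 and 7.51 CPM (log2 change 4.98, adjusted p = 1.48e-11) and the elastase Mmp12 rose by 3.88. Mmp2 rose by 0.35. Of 14 tested Mmp genes of the list, 8 were higher, 4 lower and 2 did not pass, and those that fell were Mmp8 (-2.44), Mmp28 (-1.20), Mmp10 (-0.70) and Mmp19 (-0.24). Without Vector 2 the change of Mmp8 was -1.78 and Mmp19 did not pass (adjusted p = 0.0554). The tissue inhibitors Timp1 (-1.34) and Timp3 (-1.32) fell, Timp2 rose (0.19), and Serpine2, an inhibitor of serine proteases, rose (2.19).

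Contractile and cytoskeletal genes were mostly lower, 15 of 23 tested (65.2% against 30.1% of all genes), with 3 higher, 5 that did not pass and a median of -0.28. Myl9, a myosin regulatory light chain, fell from 5.25, 4.75 and 5.56 to 0.585, 0.62 and 0.673 CPM (log2 change -3.04, SE 0.15, adjusted p = 1.5e-10). Tagln, the actin-binding protein transgelin, fell by 2.23 on the log2 scale and Acta2, smooth muscle actin, by 1.68. Mylk, the kinase of the light chain, rose by 1.03.

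Markers of the labelled spindle type were present but lower in sum. Vim, vimentin, stayed among abundant transcripts at 752 ± 7.9 CPM against 1029 ± 36.6 in Vector (log2 change -0.45, SE 0.04, adjusted p = 1.29e-07), and the sum of the spindle and fibroblast markers was 12494 to 13569 CPM in Vector and 7340 to 7482 in DNTCF4_EZH2. Fibronectin, Fn1, made up most of that sum, at 8756 ± 349.9 CPM in Vector and 4627 ± 42.2 in DNTCF4_EZH2. Of 11 tested spindle and fibroblast markers (of 15), 7 were lower, 2 were higher, Pdgfra (0.46) and Prrx1, and 2 did not pass. Col3a1, Twist1 and Thy1, listed among mesenchymal markers, were at or near 0 in both groups. Of 18 tested mesenchymal genes and EMT factors (of 22), 5 were higher (27.8% against 28.3% of all genes), 6 lower (33.3% against 30.1%) and 7 did not pass, with a median of 0.03. Both shares were near those over all genes. The paired related homeobox factors moved apart, Prrx1 from 19.9 ± 0.644 to 103 ± 1.59 CPM (log2 change 2.37, adjusted p = 1.25e-14) and Prrx2 from 32.2 ± 1.23 to 6.84 ± 0.568 CPM (log2 change -2.24, adjusted p = 8.75e-13). Twist2 rose (2.29) and S100a4 fell (-1.73). Snai1, a repressor of E-cadherin, did not pass (0.09, adjusted p = 0.464).

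Of 23 tested epithelial genes (of 37), 9 were higher (39.1% against 28.3% of all genes), 5 lower (21.7% against 30.1%) and 9 did not pass. Their median was 0.02 and became -0.07 without Vector 1. Cldn4, a tight junction protein (1.81), the epithelial factor Elf3 (1.60) and keratin 17 (Krt17, 1.56) rose. Trp63, the basal epithelial factor p63 (-2.55), and Grhl1 (-2.03) fell. Cdh1, E-cadherin, stood at 0.491, 1.15 and 0.758 CPM in Vector and 0.878, 0.979 and 0.808 in DNTCF4_EZH2, and did not pass (adjusted p = 0.708). Luminal markers summed to 360 to 367 CPM in Vector and 360 to 380 in DNTCF4_EZH2, and basal markers to 37.5 to 43.2 and 14.6 to 16.6 CPM. Keratins made up most of the luminal sum, and of 7 tested luminal markers 2 were higher and 3 lower. Acta2, also listed among the contractile genes, made up most of the basal sum, at 30.4 ± 2.56 CPM in Vector and 9.49 ± 0.25 in DNTCF4_EZH2. Of the basal keratins, Krt17 rose, and Krt5 and Krt14 stayed under 0.34 CPM in all 6 libraries.

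Signalling lists beyond Wnt held changes in both directions. In the TGF-beta and BMP pathway, 14 of 39 tested genes were higher (35.9% against 28.3% of all genes) and 16 lower (41.0% against 30.1%). The other 9 did not pass, and the median was -0.07. Inhba, the activin A chain, rose from 141 ± 1.1 to 266 ± 1.23 CPM (log2 change 0.91, SE 0.06, adjusted p = 3.81e-09), the follistatin-like gene Fstl1 by 1.00 and the inhibitory Smad7 by 0.59. The BMP antagonists Nog (-2.86) and Grem1 (-1.18) and the ligands Tgfb3 (-1.17) and Bmp4 (-0.99) fell.

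Among 19 genes of the YAP, TAZ, TEAD and Hippo list, 10 were lower (52.6% against 30.1% of all genes). A further 2 were higher (10.5% against 28.3%) and 7 did not pass, and the median was -0.16. Yap1 itself, a coactivator of TEAD factors, fell from 4839, 4775 and 4860.3 to 3609, 3596 and 3642 CPM (log2 change -0.42, SE 0.035, adjusted p = 6.11e-08). The receptor kinase Axl (-0.76), the LIM protein Ajuba (-0.64) and Ankrd1 (-0.54) fell, and Tead2 rose (0.33).

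Of 40 tested growth factor ligands and receptors (of 44), 16 were higher (40% against 28.3% of all genes) and 18 lower (45% against 30.1%). The other 6 did not pass, and the median was -0.08. Hgf, hepatocyte growth factor, rose from 23.7, 23.6 and 21.6 to 81.4, 82.1 and 80.2 CPM (log2 change 1.82, adjusted p = 5.28e-13), while its receptor Met fell from 494, 486 and 507 to 140.1, 141 and 135 CPM (log2 change -1.84, adjusted p = 5.32e-14). Among other ligands Pdgfd (3.34) and Tgfa (1.27) rose, and Igf1 (-1.97), Bdnf (-1.25) and Areg (-0.98) fell. The VEGF receptor Flt1 rose (2.02).

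In the Notch pathway 4 of 14 tested genes were higher (28.6% against 28.3% of all genes), 5 lower (35.7% against 30.1%) and 5 did not pass, with a median of 0.01. Both shares were near those over all genes. Notch4 rose from 1.78, 1.74 and 1.81 to 9.65, 11.1 and 11.6 CPM (log2 change 2.59, adjusted p = 9.67e-11) and the Notch target Hes1 fell by 0.97. Of 22 AP-1 and immediate early factors, 10 were lower (45.5% against 30.1% of all genes) and 5 higher (22.7% against 28.3%). The other 7 did not pass, and the median was -0.06. Egr1 (-1.11), Atf3 (-0.83) and Fos (-0.76) fell and Ier3 rose (0.92). In a fit of the 6 libraries alone 8 of these factors were higher.

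Of 12 tested stem cell surface and ALDH markers (of 17), 3 were higher (25% against 28.3% of all genes), 5 lower (41.7% against 30.1%) and 4 did not pass, with a median of -0.07. The aldehyde dehydrogenases were divided. Aldh1a1 fell from 1.66, 1.52 and 1.77 to 0.205, 0.392 and 0.269 CPM (log2 change -2.51, adjusted p = 2.43e-06) and Aldh3a1 by 1.41, and Aldh1a3 rose from 2.38, 2 and 2.65 to 5.65, 5.51 and 5.56 CPM (log2 change 1.25, adjusted p = 8.02e-07). The integrin chain Itgb3 rose by 2.12.

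Metabolic lists moved by modest amounts. Of 27 tested cholesterol and fatty acid synthesis genes, 12 were higher (44.4% against 28.3% of all genes) and 4 lower (14.8% against 30.1%). The other 11 did not pass, and the median was 0.12. Insig1, a sensor protein that holds back sterol synthesis, rose by 1.11 and the desaturase Scd2 by 0.70, and acetyl-CoA carboxylase (Acaca) fell by 0.40. The count of lower members was 1 without Vector 2 and 2 without DNTCF4_EZH2 2. Of 28 glycolysis and hypoxia genes, 13 were higher (46.4% against 28.3% of all genes) and 8 lower (28.6% against 30.1%). The other 7 did not pass, and the median was 0.09. Hif1a, the oxygen-regulated factor, rose from 246 ± 4.23 to 465 ± 8.8 CPM (log2 change 0.92, SE 0.05, adjusted p = 3.65e-10), with Ndrg1 (1.02), Eno2 (1.03) and the glucose transporter Slc2a1 (0.61). The phosphofructokinase Pfkl fell (-0.57).

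Iron and antioxidant genes were mostly lower, 17 of 27 (63.0% against 30.1% of all genes). A further 7 were higher (25.9% against 28.3%) and 3 did not pass, and the median was -0.28. Both chains of the iron store ferritin were measured, and they moved apart. Fth1, the heavy chain, gained more CPM than any other gene under the naming rule, from 13567, 14283 and 13581 in Vector to 29476, 29493 and 28507 in DNTCF4_EZH2 (log2 change 1.08, SE 0.031, adjusted p = 1.52e-13). Ftl1, the light chain, fell from 5175, 5449.9 and 5209 to 3354, 3284 and 3417 CPM (log2 change -0.66, SE 0.051, adjusted p = 2.53e-08). The iron carrier transferrin (Trf, 2.55) and metallothionein Mt2 (1.11) rose, and the NRF2 targets Srxn1 (-0.73) and Nqo1 (-0.58) fell.

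Most of the 15 largest rises began from a Vector level under 1 CPM. Vnn3, a pantetheinase, had no count in Vector and 132 in DNTCF4_EZH2, at least 35.9-fold higher, and Il1f6, an interleukin 1 family cytokine, had none and 104, at least 28.3-fold higher, with 3 counts over the group as the floor. Chst15, a chondroitin sulfotransferase, had 1 count in Vector and 199 in DNTCF4_EZH2, a ratio of 162 (95% counting interval 28.8 to 6445). Fcho1, an endocytosis protein, had 2 and 243 counts (99.1, interval 27.1 to 823), and Tmem74 2 and 153 (62.4, interval 17.0 to 520.0). The Vector count of Chst15 was in Vector 1 and both of Fcho1 were in Vector 2. Without that library the fitted log2 changes, 8.93 for Chst15 and 9.22 for Fcho1, depend on the prior count. Igfn1, a muscle-type immunoglobulin domain gene, rose from 0.0378, 0 and 0.169 to 6.52, 6.1 and 6.3 CPM (log2 change 6.51, adjusted p = 1.42e-11). Dapk1, a death-associated kinase, rose from 0.302, 0.26 and 0.337 to 25.3, 23.4 and 24.1 CPM (log2 change 6.33, adjusted p = 6.8e-16), and Cd34, a sialomucin of progenitor and endothelial cells, from 0.416, 0.742 and 0.801 to 34.8, 36.5 and 32.4 CPM (log2 change 5.73, adjusted p = 5.63e-15). The translation termination factor Gspt2 (6.08), the transcription factor Dach1 (5.86) and Mamld1 (5.76) completed the 15 largest with Ccl3, Il1a, Csf3 and Nnt. Without Vector 2 the change was 6.89 for Gspt2 and 7.37 for Dach1, and without Vector 3 it was 8.11 for Igfn1. The Nnt feature concerned, ENSMUSG00000116207, stood at 0, 0.965 and 0 CPM in Vector and 11.2, 18.3 and 8.32 in DNTCF4_EZH2 (log2 change 5.21, adjusted p = 0.000235). All its Vector reads were in Vector 2, without which the fitted log2 change, 11.51, depends on the prior count. A feature with the same symbol at overlapping coordinates, ENSMUSG00000025453, fell from 83.1, 82.6 and 79.5 to 55.8, 47.8 and 55.4 CPM, so the split of reads between the copies is uncertain.

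The largest falls ended under 1 CPM. Inmt, a methyltransferase of indole amines, had 172 counts in Vector and none in DNTCF4_EZH2, at least 70.3-fold lower. Cyp2f2, a cytochrome P450 enzyme, fell from 4.46, 5.87 and 5.39 to 0.117, 0.0326 and 0.135 CPM (log2 change -5.72, adjusted p = 1.67e-10), and Akr1c18, a steroid reductase, from 4.12, 3.75 and 3.83 to 0.0293, 0.228 and 0.0673 CPM (log2 change -5.15, adjusted p = 8.71e-09). Igfbp2, a binding protein of insulin-like growth factors, fell from 6.88, 6.5 and 8.05 to 0.117, 0.294 and 0.471 CPM (log2 change -4.62, adjusted p = 2.22e-10), Fam135b from 2.8, 2.6 and 3.33 to 0.0878, 0 and 0.0337 CPM (log2 change -5.96, adjusted p = 8.37e-08), Fbln7, a fibulin, by 4.47 on the log2 scale, and the interferon gene Ifi27l2a by 4.29. The change was -7.11 for Fam135b without DNTCF4_EZH2 1 and -6.24 for Akr1c18 without DNTCF4_EZH2 2.

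Several other large falls were of genes whose Vector reads were highest in Vector 2, the library with the most receptor reads, and the part of those reads in the falls was not tested. Scn3a, a sodium channel, had 99 counts over Vector and 2 over DNTCF4_EZH2 (ratio 60.7, interval 16.4 to 508), and Pcdh11x 83 and 3 (33.9, interval 11.2 to 168). Kcnq1ot1 stood at 2.61, 9.65 and 3.75 CPM in Vector (-4.57), is antisense to Kcnq1, and its reads cannot be told from those of Kcnq1 because no source used here says whether strand was used in counting. Slc8a1 stood at 0.529, 4.27 and 1.64 CPM in Vector (-4.30), Ptprd at 0.642, 2.38 and 0.969 (-4.55), Cttnbp2 at 1.4, 2.08 and 1.69 (-5.21) and Usp29 at 0.567, 2.45 and 1.35 (-4.22). Without Vector 2 the changes were -3.28 for Slc8a1, -3.60 for Usp29, -3.81 for both Ptprd and Kcnq1ot1 and -4.87 for Scn3a, with adjusted p from 3.06e-05 to 0.00171, and for Cttnbp2 -4.61 without DNTCF4_EZH2 1. Other libraries left out gave larger falls, -5.29 for Kcnq1ot1 without DNTCF4_EZH2 1, and -5.23 for Ptprd and -5.74 for Pcdh11x without DNTCF4_EZH2 2.

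Among the genes that gained most in CPM were also Malat1, a nuclear long noncoding RNA (984 ± 70.8 to 2019.6 ± 49.7 CPM, log2 change 1.04), and Ptgs2, the inducible prostaglandin synthase (1475 ± 20.3 to 2043 ± 12.9 CPM, log2 change 0.47). Among those that lost most were Capza2, an actin capping subunit, from 824, 799 and 799 to 161, 158 and 157 CPM (log2 change -2.35, SE 0.076, adjusted p = 6.38e-13), Tmem123 (-0.45), Dcun1d5 (-0.62), Igfbp4 (-0.39) and Tpt1 (-0.41).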

How the data were processed

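Total RNA of 12 CCN6KOT libraries was sequenced, and groups and replicate numbers came from the sample titles. The authors deposited expected counts per gene, made with cutadapt 2.3, FastQC 0.11.8, STAR 2.7.8a and RSEM 1.3.3 on GRCm38, per the submitters' processing notes. RSEM estimates how reads shared by several genes divide among them, which affects near-identical copies. The deposited expected counts were rounded to whole numbers before the fit. The authors also deposited log2 values from DESeq2's rlog transformation for 21754 genes, used here only as an alternative.

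Genes with at least 10 counts in at least 3 of the 6 libraries compared were fitted with edgeR 4.0.16 (R 4.3.3), with TMM scaling, a mean per group over all 12 libraries (8 residual degrees of freedom) and the quasi-likelihood test, adjusted with Benjamini-Hochberg over 14711 genes. Depth is given with the groups. The floor for a gene with none is 3 counts over the 3 libraries of its group. In a single library 3 counts equal 0.0878 to 0.126 CPM. Counting intervals cover counting error only. Positions are those of GENCODE M21.

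Named genes were the 15 largest rises and 15 largest falls in log2 change among called genes whose groups did not overlap and whose higher group averaged at least 1 CPM (predicted gene models and receptor genes left out), the 10 largest gains and 10 largest losses in mean CPM, the construct genes, and members of 35 gene lists and of the cell type markers. The members and lists were chosen with earlier results of these data known. Promoter windows came from RefSeq (GRCm38.p6); of 20595 genes with a window and a transcript, a window opened a transcript of that gene for 16839 (81.8%). Alternatives were DESeq2 1.42.0 (size factors, Wald test), limma 3.58.1 on the rlog values, other filters and library sets, and a replicate block. The group labelled DNTCF4_SET entered the fit and is not described. A few list members are counted but not reported by name here.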

Additional observations from a re-analysis of the deposited data

How the results depend on the processing

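The number of changed genes, 8599, lay between 7919 and 10436 under other scaling, tools, filters and the 6 libraries alone, between 7750 and 9516 with 1 library left out, and at 7095 with Vector 2 and DNTCF4_EZH2 1 both left out, a setting chosen after seeing the data. A 2-fold limit gave 1634 changed genes, 929 higher and 705 lower, of which 56.9% were higher. Without a filter on low counts 43.4% of changed genes were higher. Replicate numbers did not pair the libraries (correlations of deviations between same-numbered libraries of 0.0281, 0.0368 and -0.0263), and a replicate block gave 8471 changed genes. Of 242 called genes named in the text, 15 were not tested under the filter of a mean of at least 1 CPM. The other 227 were tested under all 15 settings that apply to single genes, and 222 kept their direction and call; the exceptions were Tcf7, Rpl5, Cd68, Cdh5 and Mmp19. No direction of a named gene was reversed. Of 1050 counts of list members compared, 1025 stayed within 1.5 times. Changes were smaller on the deposited rlog scale, with a median of -0.89 for the interferon list and 0.49 for the cytokine list. Genes under about 1 CPM rest on few counts, and their fold changes are the least precise.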

Other observations

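Axon guidance genes, whose products steer growing axons, changed in both directions. Of 34 tested (of 41 listed), 18 were higher (52.9% against 28.3% of all genes), 11 lower and 5 did not pass, with a median log2 change of 0.28. Sema6d rose from 0.642, 1.48 and 1.1 CPM in Vector to 17.9, 16.7 and 17 in DNTCF4_EZH2 (log2 change 3.99, adjusted p = 1.48e-12), the Slit receptor Robo2 by 2.31 and Sema4d by 2.31, and Sema5a fell by 1.48. Of 10 tested long noncoding RNAs, 4 were higher (40% against 28.3% of all genes), 3 lower (30% against 30.1%) and 3 did not pass, with a median of 0.05. The small nucleolar RNA host gene Snhg12 fell by 0.48. Of 13 mitochondrially encoded genes, none was higher (against 28.3% of all genes), 5 were lower (38.5% against 30.1%) and 8 did not pass. Their median was -0.21, with 3 lower without Vector 2, Vector 3 or DNTCF4_EZH2 2, and 8 without DNTCF4 1. All features with a symbol starting mt-, not only these 13, together took 1.73% to 1.74% of counts in Vector and 1.63% to 1.67% in DNTCF4_EZH2.

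Genes next to Capza2 and Yap1, both among the largest losses in CPM, were read after their values had been seen, and no test was made of either region. Within 1 Mb of Capza2 (chromosome 6, 16777524 to 18514843, GRCm38), 11 of 12 tested genes were lower, none was higher, and Cftr did not pass (-0.78, adjusted p = 0.213). Over all tested genes 30.1% were lower and 28.3% higher. Several of the 11 rest on few reads, such as Gm36669 (46 counts over Vector and 2 over DNTCF4_EZH2) and Cttnbp2 (133 and 4). The caveolins Cav1 fell from 632, 631 and 637 to 118, 115 and 112 CPM (log2 change -2.46) and Cav2 by 2.37 on the log2 scale, Tes by 2.96, St7 by 2.44 and Met by 1.84. Within 1 Mb of Yap1 (chromosome 9, 6928503 to 9239101), 12 of 21 tested genes were lower (against 30.1% of all genes) and 5 did not pass. The 4 that were higher (against 28.3% of all genes) were the metalloproteinases Mmp13, Mmp3, Mmp12 and Mmp1b (0.48). Of the other metalloproteinases there, Mmp10 (-0.70), Mmp8 (-2.44) and Mmp20 (-2.75) were lower, and Mmp1a (-0.48) and Mmp27 (0.32) did not pass. The change was -1.78 for Mmp8 without Vector 2 and -3.93 for Mmp20 without DNTCF4_EZH2 1.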
